A study of Mus musculus with 21 samples.

Results

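The genes described here are the potassium channel genes of the mouse ventral hypothalamus (VH; circumventricular hypothalamus in the series record), taken as every gene of the deposited count table whose symbol begins with Kcn. Of the 94 such entries, 3 (*kcnj8*, *kcnj13* and *kcne2*) were left out by name and 23 averaged under 50 reads over the 21 libraries. The other 68 entries, which stand for 67 gene symbols, are the members, out of 21654 entries in the table and 12768 that averaged at least 50 reads and were tested. The symbol *kcnb2* stands on 2 Ensembl identifiers next to each other on chromosome 1, and they are kept apart.

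The study set diet and energy balance apart from body weight by switching some mice between regular chow (RC) and a high-fat diet (HFD). RNA from VH punches was sequenced as stranded, polyA-selected libraries, and each library pools the punches of 2 mice. The mice were male, of strain C57/BL6 in the labels and C57BL/6J in the methods, and arrived at 12 to 14 weeks of age. They then ate the first diet for 8 to 10 weeks. Punches come from 7 days past the switch, at ZT6, in the light phase, after 3 h of wakefulness. RC NoDS mice (no diet switch; 5 libraries) ate chow throughout and HFD NoDS mice (5 libraries) ate the high-fat diet throughout. RC → HFD mice (6 libraries) were moved from chow to the high-fat diet, and HFD → RC mice (5 libraries) were moved from the high-fat diet to chow. All mice shared strain, sex, wakefulness and time of collection. The groups differ by diet history and, with it, by body weight and energy balance. In the paper RC NoDS mice were the lightest and HFD NoDS mice the heaviest. The switched groups lay between, at statistically similar weights. RC → HFD mice had gained weight over the week and HFD → RC mice had lost it. Because each library mixes animals, the spread between libraries is a spread between pools.

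Potassium channels let potassium ions leave or enter a cell and so set how far its membrane rests from threshold and how fast it recovers after a spike. The voltage-gated families shape spikes, the inward rectifiers and leak channels hold the resting potential, and the calcium- and sodium-activated families follow activity within the cell. In the hypothalamus, feeding neurons use such channels to respond to glucose, transmitters and hormones, and astrocytes use an inward rectifier to clear potassium after firing.

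Just under the limit of 50 reads lay *kcnmb1* with a mean of 47.5 reads, *kcnj14* with 40.8, *kcns1* with 40.6 and *kcnh8* with 37.8. Just inside lay *kcng2* with 51.0, *kcnk4* with 56.3, *kcnu1* with 56.5 and *kcnab3* with 67.5. Annotated exons of 59 members overlapped no other gene. For *kcnab2* they overlapped a gene on the same strand. For 8 members (among them *kcna6*, *kcnab3*, *kcnd3*, *kcnh7*, *kcnj3*, *kcnmb4* and *kcnq5*) they overlapped one on the opposite strand, and whether reads were counted by strand is not stated, so some reads of these 9 genes may come from a neighbour.

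Each library held between 16380781 and 16390598 reads, because the authors drew every library down to a common size. The size the paper gives is larger than these totals, and the reason is not stated. Before sequencing, the authors left out punches that lacked enrichment of *agrp* and *pomc* over *hcrt*. Reads of *agrp* and *pomc* were thus selected for and do not check the VH label. All 11 VH markers had reads, led by *pomc* with a mean of 8304. They summed to 20714 ± 2671 in RC NoDS, 20800 ± 3167 in RC → HFD, 20000 ± 3132 in HFD → RC and 22087 ± 2254 in HFD NoDS. Of the 6 markers of cortex and hippocampus, all had some reads, summing to 576 ± 75.6 in RC NoDS, 580 ± 170 in RC → HFD, 549 ± 167 in HFD → RC and 584 ± 103 in HFD NoDS with *prox1* the most abundant. Markers of other regions were less even. Both markers of the lateral hypothalamus had reads, led by *pmch*, and summed to 1003, 1827, 696, 439 and 378 in RC NoDS, 2400, 2400, 2060, 829, 831 and 1412 in RC → HFD, 1842, 791, 954, 1427 and 902 in HFD → RC and 678, 2344, 2013, 753 and 2003 in HFD NoDS. Of these, edgeR called *hcrt*, which rose from RC NoDS to HFD NoDS by 2.71 ± 0.56 (adjusted p = 0.0513). DESeq2 called it too and limma-voom called neither, and both had negative interaction values, with a median of -0.66. The paper placed its punches to leave out the neurons that express *hcrt*. It reported *hcrt* as similar across all groups, by RNA-seq and by RT-qPCR. Whether punch placement had a part in the rise was not tested. All 5 thalamus markers had reads, led by *calb2*, and summed to 4904, 4513, 4828, 4421 and 4983 in RC NoDS, 5426, 5731, 5239, 5172, 5383 and 6434 in RC → HFD, 5383, 5505, 6216, 4943 and 4710 in HFD → RC and 5076, 6501, 5680, 4603 and 4555 in HFD NoDS, with 3 of 5 negative in the interaction and a median of -0.17. None was called by edgeR or limma-voom, and DESeq2 called *calb2*. In the interaction 7 of the 10 tested VH markers had positive values, with a median of 0.29, and in other comparisons edgeR, DESeq2 and limma-voom each called *agrp*, *npy* and *cartpt*. The part of these regions in the potassium channel result was not tested. The libraries differed in how many weakly expressed genes they missed. Of the 3116 genes averaging 5 to 50 reads, the share with 0 reads was 3.22 ± 2.42% in RC NoDS (mean ± SD), 11.9 ± 8.82% in RC → HFD, 16.5 ± 10.3% in HFD → RC and 16.3 ± 9.93% in HFD NoDS. Its part in the results was not tested beyond a fit with this share as a covariate.

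The 68 members had a median of 424 mean reads, and the fewest were 51.0 for *kcng2*. Together they took 0.346 ± 0.0146% of all reads in RC NoDS (mean ± SD), 0.366 ± 0.00557% in RC → HFD, 0.361 ± 0.0147% in HFD → RC and 0.347 ± 0.0142% in HFD NoDS. Levels of different genes are compared as reads per kilobase of annotated exon, a scale on which a gene with long annotated ends reads low. On it *kcnj10*, an inward rectifier found in astrocytes, stood first with 1262 reads per kb. In bulk punches its reads cannot be assigned to 1 cell type. Among other abundant members was *kcnab2*, a cytoplasmic partner of the Kcna channels, with 473 reads per kb. The leak channel *kcnk2* had 466 reads per kb, the G protein-gated rectifier *kcnj9* had 434, and *kcnc4* and *kcnc1*, voltage-gated subunits of fast currents, had 416 and 404. At the other end were *kcnu1*, known mainly from sperm, with 15.4 reads per kb, and the sodium-activated *kcnt2* with 15.8. Summed over members, Kcnj genes took 19.5% of the reads of all members and Kcnc genes 11.6%, while Kcnm genes took 1.31% and Kcnn genes 1.44%.

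**Figure D1:**
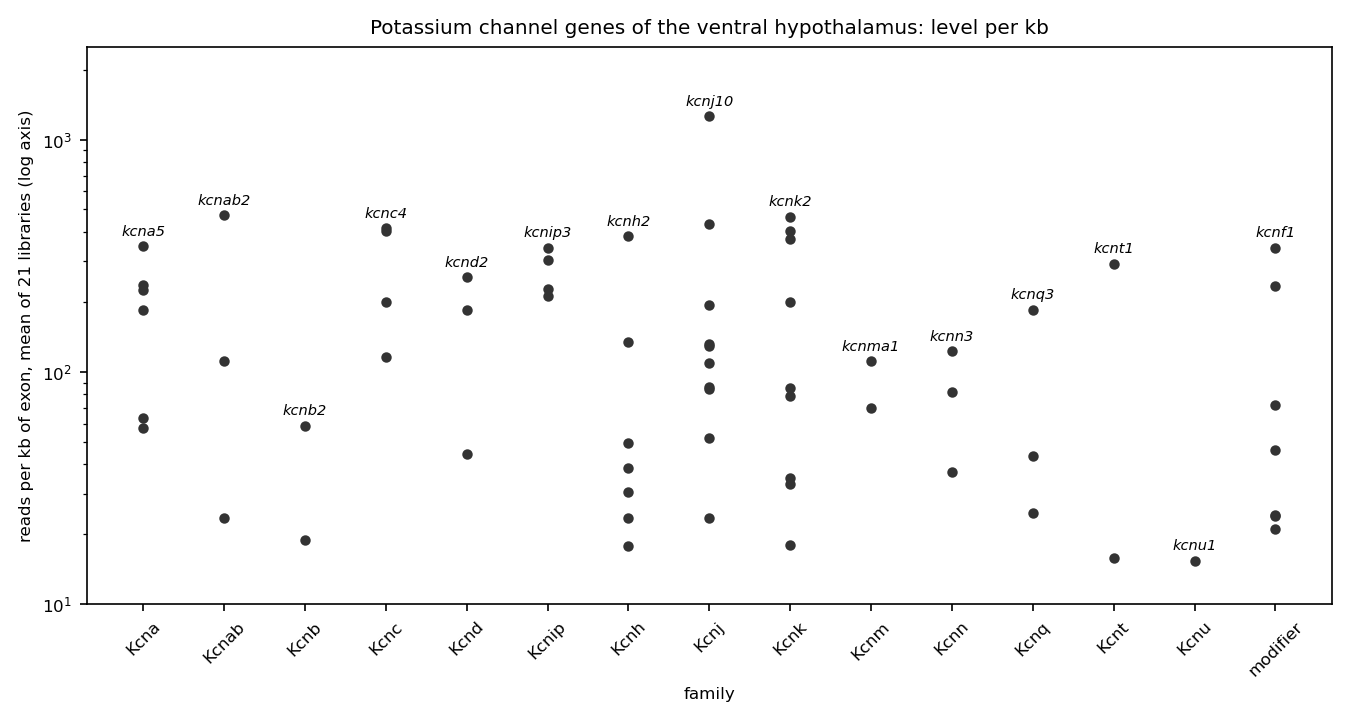
Mean reads per kilobase of annotated exon of 66 of the 68 members over the 21 libraries, on a log axis, arranged by family. *kcnj10* stands highest at 1262 reads per kb and *kcnu1* lowest at 15.4.

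The selectivity filter, the narrow stretch of the pore that tells potassium from sodium, is the part that pore-forming members of most families share, so its coding sequence is shown for 6 members that the text below names. The motif searched was the potassium channel signature, 15 bases long, on the coding strand and in frame, in the GENCODE vM1 coding sequence (NCBIM37) of each gene. It was found in 41 of the 68 members and in 88 of the 12526 tested genes with a coding sequence, or 0.703%. By family it was present in 6 of 6 Kcna, 2 of 3 Kcnb, 4 of 4 Kcnc, 3 of 3 Kcnd, 9 of 10 Kcnj, 6 of 9 Kcnk, 1 of 2 Kcnm and 4 of 4 Kcnq members. It was present in 6 of the 7 silent and modifier subunits and in 0 of the Kcnab, Kcnip, Kcnh, Kcnn, Kcnt and Kcnu members. Such a match is a description, and its absence says only that these letters are not in that coding sequence. Capitals mark the 15 bases of the motif in the lines that follow, each read 5′ to 3′ on the coding strand.
kcna6: atgaccACGGTAGGTTATGGGgacatgtac
kcnd3: atgactACACTGGGATATGGAgacatggtg
kcnj10: cagaccACCATCGGCTATGGCttccgctac
kcnj5: gaaacaACCATTGGGTATGGCttcagagtc
kcnk4: atcactACCATCGGCTATGGCaatatagtc
kcnma1: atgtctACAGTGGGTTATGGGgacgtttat
In the members shown, the bases after the motif begin with gac in the voltage-gated *kcna6* and *kcnd3* and in the calcium-activated *kcnma1*, and with ttc in the rectifiers *kcnj10* and *kcnj5*. They vary within a family, with gat in *kcna3* and tac in *kcnj3*.

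Many potassium channel genes had their higher means in the mice that had switched diet, in whichever direction. Both switched groups exceeded both unswitched groups for 27 of the 68 members (39.7%) and for 1807 of the 12768 genes tested (14.2%). The reverse held for 8 members (11.8%) and 2662 genes tested (20.8%). Summed over the 68 members, the reads were 56637 ± 2389 in RC NoDS, 59995 ± 916 in RC → HFD, 59169 ± 2410 in HFD → RC and 56928 ± 2322 in HFD NoDS (mean ± SD). The lowest RC → HFD library, with 58819 reads, lay under the highest library of RC NoDS, with 59438, and of HFD NoDS, with 59444, so the sums of all groups overlapped. The test that bears on this is the interaction of the earlier and the present diet, the step from HFD → RC to HFD NoDS minus the step from RC NoDS to RC → HFD, which is negative where the switched groups together exceed the unswitched ones. In it, 17 members had positive and 51 negative log2 fold changes, with a median of -0.18 beside -0.004 over all genes tested, and the members' median ran from -0.24 to -0.15 over the alternative fits. In the main fit edgeR called 0 of the 68 members and 0.0313% of all genes tested at an adjusted p under 0.15, DESeq2 called 2 (*kcnj10* and *kcnq3*) of the members and 116 of all 12768 genes, and limma-voom 0 and 15. At an unadjusted p under 0.05 there were 15 members by edgeR, beside 8.84% of all genes tested, 16 by DESeq2 and 14 by limma-voom. With the trend on length and GC content removed edgeR called 3 (*kcnj10*, *kcnk4* and *kcnq3*), and without HFD NoDS replicate 20 it called 1 (*kcnc1*). Those fits called 275 and 124 of all genes tested, beside 4 in the main fit. Counts over the list are a description and not a test of it. In pieces of tissue, fewer cells of a type and less RNA per cell cannot be told apart.

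Neuron markers also had higher mean sums in both switched groups than in both unswitched groups, so marker values are given here. All 10 neuron markers had reads, led by *syp*, and summed to 53742, 53495, 53889, 50795 and 50137 in RC NoDS, 56964, 57342, 54639, 56412, 54856 and 63457 in RC → HFD, 58316, 54032, 62589, 56551 and 56749 in HFD → RC and 55973, 59028, 56134, 51043 and 54004 in HFD NoDS. In the interaction all 10 had negative values, with a median of -0.30. From RC NoDS to HFD → RC edgeR called 2 of them, *nefh* with 0.36 ± 0.086 (adjusted p = 0.132) and *nefm* with 0.56 ± 0.14 (adjusted p = 0.146). RC NoDS had the lowest neuron sums, each of its libraries lying under every library of RC → HFD and of HFD → RC. All 8 astrocyte markers had reads, led by *aldoc*, and summed to 55614, 58424, 62728, 55243 and 57085 in RC NoDS, 61582, 61670, 60533, 57180, 57214 and 58089 in RC → HFD, 63791, 64669, 65013, 59576 and 62172 in HFD → RC and 58512, 66519, 58642, 63683 and 55058 in HFD NoDS. Of these, 5 had negative interaction values, with a median of -0.18. The astrocyte markers edgeR called were *s100b*, with 0.54 ± 0.12 (adjusted p = 0.115) from RC NoDS to HFD → RC, and *gfap*, with 0.73 ± 0.15 (adjusted p = 0.0891) for the earlier diet and a call in the test of all 4 groups. All 8 oligodendrocyte markers had reads, led by *mbp*, and summed to 39492, 45723, 56981, 40005 and 58588 in RC NoDS, 63172, 52653, 50874, 52637, 46160 and 67204 in RC → HFD, 107462, 142927, 83099, 47935 and 67331 in HFD → RC and 60642, 102032, 55103, 99469 and 47550 in HFD NoDS. Of the oligodendrocyte markers, 4 of 8 (among them *mal*, *mbp* and *mobp*) rose from RC NoDS to HFD → RC by edgeR. It also called *mbp* and *mobp* for the earlier diet, with 0.75 ± 0.17 (adjusted p = 0.142) and 0.78 ± 0.16 (adjusted p = 0.0891), where all 8 markers had an unadjusted p under 0.05, and *mobp* in the test of all 4 groups. All 8 had negative interaction values, with a median of -0.45. Of neuron, astrocyte and oligodendrocyte markers DESeq2 called 3, 2 and 4 in any comparison and limma-voom 0, 0 and 0. The 4 markers of oligodendrocyte precursors, led by *olig1*, summed to 4424, 4297, 5038, 4737 and 5541 in RC NoDS, 4913, 4954, 5389, 4992, 4659 and 5848 in RC → HFD, 4968, 6093, 5942, 4375 and 5039 in HFD → RC and 4874, 5968, 4777, 5265 and 4810 in HFD NoDS, and 3 of them were negative in the interaction (median -0.21). The 8 markers of endothelium and pericytes, led by *flt1*, summed to 2779, 3060, 2821, 2867 and 3476 in RC NoDS, 3335, 3201, 3167, 3326, 3382 and 3448 in RC → HFD, 3220, 3335, 3132, 2828 and 3604 in HFD → RC and 3060, 3288, 3148, 3115 and 3468 in HFD NoDS, and 6 were negative (median -0.22). The 4 markers of fast-spiking neurons, led by *kcnc1* and holding *kcnc2*, both also members, summed to 4145, 4433, 4748, 4570 and 4546 in RC NoDS, 4954, 5363, 5047, 5093, 4968 and 5847 in RC → HFD, 4894, 4762, 5845, 4838 and 5329 in HFD → RC and 4998, 6104, 4573, 4387 and 4461 in HFD NoDS, and all 4 were negative (median -0.29). The 8 markers of microglia, led by *csf1r*, summed to 5604, 6023, 6214, 6191 and 6911 in RC NoDS, 6251, 5359, 6211, 6081, 6168 and 6216 in RC → HFD, 6171, 8155, 6507, 6258 and 7013 in HFD → RC and 6448, 7533, 7094, 8126 and 6580 in HFD NoDS, and 5 were positive in the interaction (median 0.11). The 8 markers of choroid plexus, led by *clic6*, summed to 1312, 1276, 1239, 1391 and 1397 in RC NoDS, 1279, 1276, 1358, 1348, 1339 and 1029 in RC → HFD, 1324, 982, 1090, 1002 and 1420 in HFD → RC and 1185, 1051, 1262, 1155 and 1247 in HFD NoDS, and the 2 that were tested were positive (median 0.14). None of these markers was at 0 throughout, and their part in the potassium channel result was not tested.

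**Figure D2:**
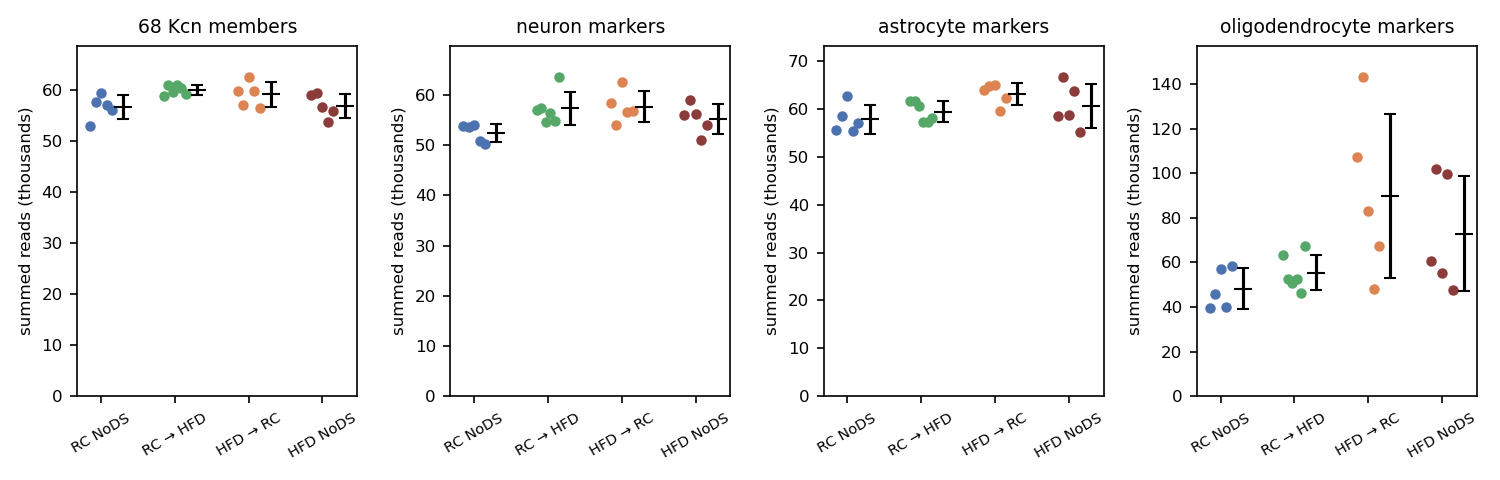
Summed reads of the potassium channel genes and of markers of neurons, astrocytes and oligodendrocytes in each library (points), on axes in units of 1000 reads, with the group mean and SD (bars), by diet group. The potassium channel sums average 56637 reads in RC NoDS and 59995 in RC → HFD, and the groups overlap.

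Comparisons of pairs of groups were made for every member. RC NoDS against HFD NoDS asks about a diet held throughout, together with the body weight that came with it. From the first to the second, 39 members had positive and 29 negative log2 fold changes, with a median of 0.037 beside 0.0065 over all genes tested. With 1 library left out that median ran from -0.016 (32 positive, without RC NoDS replicate 1) to 0.091 (44 positive, without HFD NoDS replicate 23). It was also negative without HFD NoDS replicate 20 (-0.0044, with 33 positive and 35 negative). Here edgeR called 0 of the 68 members and 0.0783% of all genes tested at an adjusted p under 0.15, DESeq2 called 0 of the members and 17 of all 12768 genes, and limma-voom 0 and 10. Under an unadjusted p of 0.05 lay 4 members in edgeR, 4 in DESeq2 and 4 in limma-voom, beside 7.41% of all genes tested in edgeR. The libraries of the 2 groups did not overlap for 2 of the members (*kcnd3* and *kcnj5*) and for 0.893% of all genes tested. Among the 6 smallest p values were those of *kcnd3*, *kcnip4*, *kcnt2*, *kcnc4* and *kcnh4*. RC → HFD against HFD → RC sets the switched groups side by side, which differ in both diets and in the direction of weight change. From the first to the second, 26 members had positive and 42 negative log2 fold changes, with a median of -0.036 beside 0.00012 over all genes tested. When 1 library was left out that median ran from -0.058 (24 positive, without HFD → RC replicate 15) to -0.0012 (34 positive, without RC → HFD replicate 12). Leaving out replicate 14 of HFD → RC gave -0.0043, with 33 positive and 35 negative. Between them edgeR called 0 of the 68 members and 0.00783% of all genes tested at an adjusted p under 0.15, DESeq2 called 0 of the members and 5 of all 12768 genes, and limma-voom 0 and 1. Without adjustment, edgeR gave 6 members a p under 0.05, DESeq2 7 and limma-voom 6, and edgeR gave one to 5.35% of all genes tested. Reads of the groups did not overlap for 0 of the members, beside 0.486% of all genes tested. The 6 smallest p values here belonged to *kcne1l*, *kcnj10*, *kcnj5*, *kcna5*, *kcnc2* and *kcnip2*. Over all 4 groups at once, *kcnj10* had the smallest adjusted p (adjusted p = 0.312, 0.0205 to 0.559 over the alternatives). In that test edgeR called 0 of the 68 members and 0.149% of all genes tested at an adjusted p under 0.15, DESeq2 called 1 (*kcnj10*) of the members and 133 of all 12768 genes, and limma-voom 0 and 13. At an unadjusted p under 0.05 there were 11 members by edgeR, beside 7.97% of all genes tested, 12 by DESeq2 and 11 by limma-voom.

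The move from chow to the high-fat diet is read from RC NoDS against RC → HFD. In that direction, 50 members had positive and 18 negative log2 fold changes, with a median of 0.10 beside -0.00094 over all genes tested. Over fits with 1 library left out that median ran from 0.080 (46 positive, without RC NoDS replicate 1) to 0.11 (51 positive, without RC NoDS replicate 3). For this step edgeR called 0 of the 68 members and 0.0392% of all genes tested at an adjusted p under 0.15, DESeq2 called 2 (among them *kcnc1*) of the members and 96 of all 12768 genes, and limma-voom 0 and 5. Under an unadjusted p of 0.05 lay 12 members in edgeR, 12 in DESeq2 and 12 in limma-voom, beside 6.51% of all genes tested in edgeR. The libraries of the 2 groups did not overlap for 4 of the members (among them *kcnc1*, *kcnk2* and *kcnk4*) and for 1.17% of all genes tested. The move from the high-fat diet to chow is read from HFD → RC against HFD NoDS. From the switched to the unswitched group, 23 members had positive and 45 negative log2 fold changes, with a median of -0.072 beside -0.0047 over all genes tested. If 1 library was left out that median ran from -0.095 (25 positive, without HFD → RC replicate 16) to -0.022 (32 positive, without HFD NoDS replicate 23). For that step edgeR called 0 of the 68 members and 0.0705% of all genes tested at an adjusted p under 0.15, DESeq2 called 2 (*kcnj10* and *kcnj5*) of the members and 44 of all 12768 genes, and limma-voom 1 (*kcnj10*) and 12. Without adjustment, edgeR gave 7 members a p under 0.05, DESeq2 7 and limma-voom 6, and edgeR gave one to 7.93% of all genes tested. Reads of the groups did not overlap for 2 of the members (among them *kcnj10*), beside 1.02% of all genes tested.

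The other pairs hold the present diet fixed and vary the earlier one. From RC NoDS to HFD → RC, groups that both ended on chow, 47 members had positive and 21 negative log2 fold changes, with a median of 0.095 beside -0.00011 over all genes tested. With any 1 library left out that median ran from 0.068 (46 positive, without HFD → RC replicate 17) to 0.13 (47 positive, without HFD → RC replicate 14). Between these edgeR called 0 of the 68 members and 0.282% of all genes tested at an adjusted p under 0.15, DESeq2 called 0 of the members and 147 of all 12768 genes, and limma-voom 0 and 7. At an unadjusted p under 0.05 there were 11 members by edgeR, beside 8.1% of all genes tested, 11 by DESeq2 and 10 by limma-voom. The libraries of the 2 groups did not overlap for 0 of the members and for 1.32% of all genes tested. From RC → HFD to HFD NoDS, groups that both ended on the high-fat diet, 23 members had positive and 45 negative log2 fold changes, with a median of -0.073 beside -0.0012 over all genes tested. With each library in turn left out that median ran from -0.12 (18 positive, without HFD NoDS replicate 20) to -0.036 (28 positive, without HFD NoDS replicate 23). In this pair edgeR called 0 of the 68 members and 0.0157% of all genes tested at an adjusted p under 0.15, DESeq2 called 0 of the members and 32 of all 12768 genes, and limma-voom 0 and 2. Under an unadjusted p of 0.05 lay 5 members in edgeR, 6 in DESeq2 and 6 in limma-voom, beside 7.49% of all genes tested in edgeR. Reads of the groups did not overlap for 1 of the members (*kcne1l*), beside 0.744% of all genes tested. The 6 pairs share groups, so their values are not independent of each other.

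Averaged over the design, the present diet (HFD minus RC) gave 42 members positive and 26 negative log2 fold changes, with a median of 0.035 beside -0.00078 over all genes tested. Over fits with any library left out that median ran from 0.0081 (37 positive, without RC NoDS replicate 1) to 0.055 (44 positive, without RC NoDS replicate 3). With the length and GC trend removed it was 0.011, with 38 positive and 30 negative. For it edgeR called 0 of the 68 members and 0.047% of all genes tested at an adjusted p under 0.15, DESeq2 called 0 of the members and 12 of all 12768 genes, and limma-voom 0 and 8. Without adjustment, edgeR gave 5 members a p under 0.05, DESeq2 5 and limma-voom 4, and edgeR gave one to 5.22% of all genes tested. The earlier diet (HFD minus RC) gave 39 members positive and 29 negative log2 fold changes, with a median of 0.018 beside 0.0031 over all genes tested. When any 1 library was left out that median ran from -0.0050 (33 positive, without RC NoDS replicate 1) to 0.030 (38 positive, without RC NoDS replicate 3). Its sign turned with the trend on gene length and GC content removed, with the share of weak genes at 0 as a covariate, and without RC NoDS replicate 1 or HFD NoDS replicate 20 (the last giving -0.0021, with 32 positive and 36 negative). In that average edgeR called 0 of the 68 members and 0.0705% of all genes tested at an adjusted p under 0.15, DESeq2 called 0 of the members and 32 of all 12768 genes, and limma-voom 0 and 3. At an unadjusted p under 0.05 there were 5 members by edgeR, beside 7.27% of all genes tested, 5 by DESeq2 and 5 by limma-voom.

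**Figure D3:**
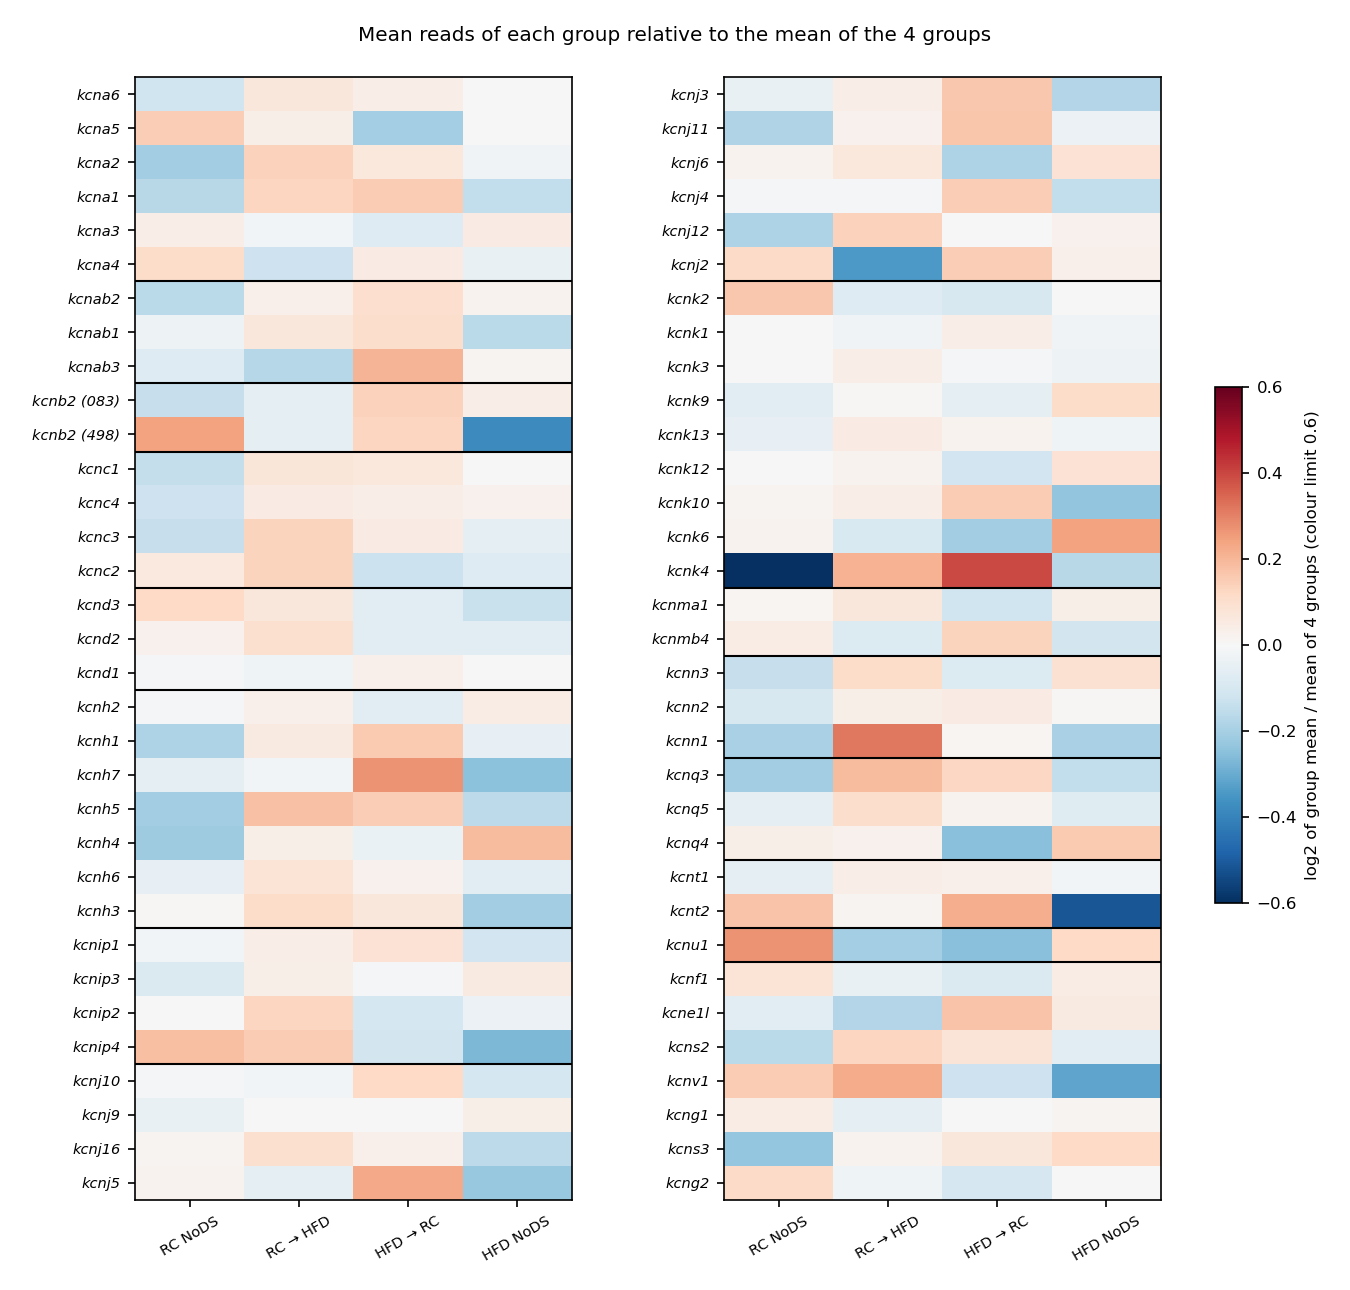
Colours give the mean reads of 66 of the 68 members in each diet group as log2 of the group mean over the mean of the 4 groups, with 1 line per member, arranged by family. Both switched groups stand above both unswitched groups for 27 members, and edgeR called 0 of the 68 in each of the 10 comparisons.

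The Kcna genes encode voltage-gated subunits of axons and nerve endings that restrain firing. Their summed reads were 4250 ± 333 in RC NoDS, 4544 ± 351 in RC → HFD, 4340 ± 407 in HFD → RC and 4302 ± 404 in HFD NoDS (mean ± SD). The median interaction of the 6 was -0.072, with 3 positive and 3 negative values, a sign of the median that held under every scaling tried. Here and for each family below, such a check says little about how steady a sign is, because a scaling moves all genes nearly alike. With library size as the only scaling, the median interaction over all genes was 0.029, beside -0.004 in the main fit. *kcna6* had the most reads of the family, with 1289 ± 137 reads in RC NoDS, 1466 ± 54.1 in RC → HFD, 1436 ± 189 in HFD → RC and 1403 ± 233 in HFD NoDS. *kcna5* had reads of 999, 1056, 1152, 1300 and 1251 in RC NoDS, of 848, 939, 815, 1076 and 840 in HFD → RC and of 1027, 1090, 943, 1031 and 1090 in HFD NoDS, and from 774 to 1340 with a median of 1083 in the 6 libraries of RC → HFD. All RC NoDS libraries of *kcna5*, a slowly inactivating subunit, lay above 4 of the 5 of HFD → RC, and the groups overlapped through 1 HFD → RC library, replicate 16. From RC NoDS to HFD → RC its log2 difference was -0.33 ± 0.11 (SE; adjusted p = 0.347, 0.133 to 0.711 over the alternatives, with log2 values from -0.39 to -0.28). When that library was left out edgeR called *kcna5*, in a fit that called 205 of all genes tested, beside 36 in the main fit. From RC → HFD to HFD → RC its log2 difference was -0.24 ± 0.11 (adjusted p = 0.899, 0.504 to 1.00 over the alternatives, with log2 values from -0.32 to -0.16). The Kcnab genes encode cytoplasmic partners of these channels. *kcnab2*, the most abundant, had 2356 ± 148 reads in RC NoDS, 2690 ± 118 in RC → HFD, 2823 ± 363 in HFD → RC and 2671 ± 722 in HFD NoDS. The median interaction of the 3 Kcnab genes was -0.30, again with 1 sign under every scaling.

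The Kcnb genes encode the slow delayed rectifiers of the cell body. The second identifier of *kcnb2* (ENSMUSG00000090498), a separate gene model just downstream, ran from 0 to 140 reads, and the main one (ENSMUSG00000092083) from 89 to 231.

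The Kcnc genes encode subunits of fast currents that open at high voltage, and some of them let neurons fire at high rates. Their summed reads were 6199 ± 413 in RC NoDS, 7119 ± 581 in RC → HFD, 6885 ± 652 in HFD → RC and 6649 ± 816 in HFD NoDS. *kcnc1* had reads of 2877, 3285, 3567, 3562 and 3397 in RC NoDS, of 3648, 3417, 4259, 3608 and 4293 in HFD → RC and of 3895, 4615, 3366, 3200 and 3290 in HFD NoDS, and from 3619 to 4203 with a median of 3854.5 in the 6 libraries of RC → HFD. RC NoDS held the low end for *kcnc1*, with every library under every RC → HFD library, and HFD NoDS spread the widest, with replicate 20 at its top. The step from RC NoDS to RC → HFD was 0.24 ± 0.088 on the log2 scale (adjusted p = 0.685, 0.130 to 1.00 over the alternatives, with log2 values from 0.15 to 0.27). Its interaction was -0.31 ± 0.13 (adjusted p = 0.468). Without HFD NoDS replicate 20 edgeR called it, in a fit that called 124 of all genes tested, beside 4 in the main fit. *kcnc4* had 1149 ± 68.3 reads in RC NoDS, 1297 ± 118 in RC → HFD, 1286 ± 111 in HFD → RC and 1276 ± 132 in HFD NoDS. *kcnc2* had 747 ± 99.5 reads in RC NoDS, 788 ± 99.7 in RC → HFD, 658 ± 150 in HFD → RC and 680 ± 55.7 in HFD NoDS, and -0.26 ± 0.13 from RC → HFD to HFD → RC (adjusted p = 0.927, 0.636 to 1.00 over the alternatives, with log2 values from -0.38 to -0.16). All 4 Kcnc genes had negative interaction values, with a median of -0.26 whose sign held under every scaling.

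The Kcnd genes encode the transient current that delays firing, and the Kcnip genes the calcium-binding subunits that travel with it. *kcnd3* had reads of 1842, 1922, 2044, 1986 and 1837 in RC NoDS, of 1709, 1763, 1640, 1957 and 1407 in HFD → RC and of 1704, 1470, 1454, 1668 and 1796 in HFD NoDS, and from 1538 to 2056 with a median of 1883 in the 6 libraries of RC → HFD. Every RC NoDS library of *kcnd3* lay above every HFD NoDS library, and both switched groups spanned the gap. The log2 difference of *kcnd3* from RC NoDS to HFD NoDS was -0.23 ± 0.086 (adjusted p = 0.640, 0.328 to 0.999 over the alternatives, with log2 values from -0.27 to -0.13), from RC → HFD to HFD NoDS -0.21 ± 0.082 (adjusted p = 0.569, 0.432 to 0.815 over the alternatives, with log2 values from -0.25 to -0.17), and for the earlier diet -0.18 ± 0.059 (adjusted p = 0.512, 0.169 to 1.00 over the alternatives, with log2 values from -0.21 to -0.11). Among the partners, *kcnip1* had 1388 ± 166 reads in RC NoDS, 1444 ± 115 in RC → HFD, 1489 ± 122 in HFD → RC and 1294 ± 96.6 in HFD NoDS. *kcnip4* had reads of 891, 755, 608, 485 and 435 in RC NoDS, of 569, 419, 581, 725 and 300 in HFD → RC and of 400, 273, 533, 548 and 569 in HFD NoDS, and from 467 to 781 with a median of 631.5 in the 6 libraries of RC → HFD. Its libraries ran widely within each group and the groups overlapped. *kcnip4* had a log2 difference of -0.43 ± 0.21 from RC NoDS to HFD NoDS (adjusted p = 0.666, 0.353 to 0.999 over the alternatives, with log2 values from -0.54 to -0.034). *kcnip2*, with 1048 ± 66.5 reads in RC NoDS, 1145 ± 130 in RC → HFD, 971 ± 197 in HFD → RC and 1020 ± 131 in HFD NoDS, had -0.24 ± 0.12 from RC → HFD to HFD → RC (adjusted p = 0.931, 0.583 to 1.00 over the alternatives, with log2 values from -0.30 to -0.13). The interaction medians were -0.050 for the 3 Kcnd and -0.13 for the 4 Kcnip genes. No scaling turned either, though a scaling moves all genes nearly alike.

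The Kcnh genes encode relatives of the ether-à-go-go channel, which add slow outward current. *kcnh2* had the most reads, with 1838 ± 125 reads in RC NoDS, 1898 ± 212 in RC → HFD, 1771 ± 171 in HFD → RC and 1914 ± 221 in HFD NoDS. *kcnh1* had reads of 617, 904, 1033, 920 and 850 in RC NoDS, of 1018, 1205, 1278, 955 and 1035 in HFD → RC and of 735, 1076, 886, 1045 and 1014 in HFD NoDS, and from 874 to 1166 with a median of 1015.5 in the 6 libraries of RC → HFD. RC NoDS held the low values of *kcnh1* and HFD → RC the high ones, with overlap. Its log2 difference from RC NoDS to HFD → RC was 0.37 ± 0.12 (adjusted p = 0.324, 0.160 to 0.855 over the alternatives, with log2 values from 0.27 to 0.44). *kcnh4* had 132 ± 20.3 reads in RC NoDS, 156 ± 29.6 in RC → HFD, 148 ± 50.9 in HFD → RC and 174 ± 28.1 in HFD NoDS. Of the 7 members, 6 had negative interaction values, with a median of -0.42 and the same sign under every scaling.

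The inward rectifiers, Kcnj, took the largest share of the members' reads, and their sums were 11210 ± 273 in RC NoDS, 11332 ± 482 in RC → HFD, 12155 ± 503 in HFD → RC and 10685 ± 244 in HFD NoDS. *kcnj10*, at chr1:174271341-174304216 on the plus strand of NCBIM37, encodes the rectifier through which astrocytes take up potassium. *kcnj10* had reads of 6835, 7318, 6864, 6508 and 6433 in RC NoDS, of 7717, 7017, 7289, 7597 and 7435 in HFD → RC and of 6407, 6033, 6338, 6338 and 6639 in HFD NoDS, and from 6339 to 7372 with a median of 6738.5 in the 6 libraries of RC → HFD. Every HFD → RC library of *kcnj10* lay above every HFD NoDS library, and RC NoDS and RC → HFD lay between and overlapped both. From HFD → RC to HFD NoDS the log2 difference was -0.23 ± 0.052 (adjusted p = 0.152, 0.00664 to 0.586 over the alternatives, with log2 values from -0.24 to -0.21) and so just over the limit of 0.15. It was called in 6 of the 31 alternatives: by DESeq2, by limma-voom, with the covariate, with the trend on length and GC content removed, and without RC NoDS replicate 2 or RC → HFD replicate 8. From RC → HFD to HFD → RC *kcnj10* had 0.13 ± 0.050 (adjusted p = 0.899, 0.563 to 1.00 over the alternatives, with log2 values from 0.12 to 0.16), and in the interaction -0.25 ± 0.072 (adjusted p = 0.246, 0.0773 to 0.506 over the alternatives, with log2 values from -0.28 to -0.21).

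G protein-gated rectifiers open when inhibitory receptors release G protein subunits, and *kcnj3*, *kcnj5*, *kcnj6* and *kcnj9* encode them. *kcnj5* had reads of 575, 582, 596, 602 and 606 in RC NoDS, of 507, 706, 786, 641 and 773 in HFD → RC and of 532, 532, 543, 397 and 493 in HFD NoDS, and from 472 to 693 with a median of 545 in the 6 libraries of RC → HFD. HFD NoDS was the low group of *kcnj5*, under every RC NoDS library, and HFD → RC was the high group apart from replicate 13, which fell within the HFD NoDS range. From HFD → RC to HFD NoDS the log2 difference was -0.46 ± 0.13 (adjusted p = 0.401, 0.148 to 0.917 over the alternatives, with log2 values from -0.54 to -0.38). From RC → HFD to HFD → RC it was 0.28 ± 0.12 (adjusted p = 0.899, 0.623 to 1.00 over the alternatives, with log2 values from 0.22 to 0.37), and for the present diet -0.25 ± 0.087 (adjusted p = 0.769, 0.524 to 1.00 over the alternatives, with log2 values from -0.30 to -0.22). The most abundant of the 4 was *kcnj9*, with 434 reads per kb. *kcnj11*, the pore of the channel that ATP closes, had 357 ± 18.6 reads in RC NoDS, 412 ± 81.9 in RC → HFD, 455 ± 85.6 in HFD → RC and 395 ± 70.0 in HFD NoDS. Over the 10 Kcnj genes the median interaction was -0.32, with 8 negative and no turn under any scaling.

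The Kcnk genes encode leak channels with 2 pore domains in each subunit, which set the resting potential. *kcnk2* had reads of 1879, 2007, 1949, 1802 and 1799 in RC NoDS, of 1359, 1626, 1732, 1918 and 1274 in HFD → RC and of 1510, 1504, 1605, 1924 and 1890 in HFD NoDS, and from 1326 to 1797 with a median of 1644.5 in the 6 libraries of RC → HFD. RC NoDS was the high group of *kcnk2*, a channel opened by stretch and fatty acids, and its lowest library lay just above the highest RC → HFD library. The step from RC NoDS to RC → HFD was -0.21 ± 0.10 (adjusted p = 0.720). *kcnk4* had reads of 44, 14, 49, 24 and 47 in RC NoDS, of 40, 77, 112, 45 and 94 in HFD → RC and of 59, 79, 47, 28 and 36 in HFD NoDS, and from 52 to 78 with a median of 63.5 in the 6 libraries of RC → HFD. For *kcnk4*, its mechanosensitive relative, every RC NoDS library lay under every RC → HFD library, at read counts that are small. From RC NoDS to HFD → RC the log2 difference of *kcnk4* was 1.07 ± 0.36 (adjusted p = 0.339, 0.167 to 0.80 over the alternatives, with log2 values from 0.83 to 1.23) and in the interaction -1.45 ± 0.50 (adjusted p = 0.332, 0.144 to 0.627 over the alternatives, with log2 values from -1.68 to -1.23). The latter was called with the trend on length and GC content removed, in a fit that called 275 of all genes tested. The median interaction of the 9 Kcnk genes was -0.075, with 5 negative and the same sign under every scaling.

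Channels opened by calcium or sodium within the cell end spikes or lengthen the pause after them. *kcnma1*, the pore of the large-conductance channel, had 532 ± 61.5 reads in RC NoDS, 553 ± 107 in RC → HFD, 486 ± 87.8 in HFD → RC and 541 ± 111 in HFD NoDS, and its neuronal partner *kcnmb4* had 241 ± 36.9 reads in RC NoDS, 220 ± 23.8 in RC → HFD, 256 ± 70.8 in HFD → RC and 216 ± 54.6 in HFD NoDS. Of the small-conductance genes *kcnn3* had the most reads, with 344 ± 71.9 reads in RC NoDS, 407 ± 76.6 in RC → HFD, 357 ± 77.5 in HFD → RC and 403 ± 72.2 in HFD NoDS. *kcnn1* had reads of 99, 149, 148, 103 and 148 in RC NoDS, of 180, 121, 145, 166 and 136 in HFD → RC and of 108, 173, 151, 104 and 112 in HFD NoDS, and from 141 to 237 with a median of 185.5 in the 6 libraries of RC → HFD. RC → HFD held the high values of *kcnn1*, and the groups overlapped. Its log2 difference from RC → HFD to HFD NoDS was -0.51 ± 0.21 (adjusted p = 0.591, 0.384 to 0.784 over the alternatives, with log2 values from -0.65 to -0.42). The sodium-activated *kcnt1* had 2120 ± 250 reads in RC NoDS, 2259 ± 167 in RC → HFD, 2249 ± 272 in HFD → RC and 2176 ± 147 in HFD NoDS and its relative *kcnt2* 112 ± 30.2 reads in RC NoDS, 100 ± 21.1 in RC → HFD, 115 ± 53.7 in HFD → RC and 69.4 ± 21.3 in HFD NoDS. From RC NoDS to HFD NoDS *kcnt2* had -0.67 ± 0.30 (adjusted p = 0.657, 0.347 to 0.999 over the alternatives, with log2 values from -0.84 to -0.32). The interaction medians were -0.042 for the 2 Kcnm genes (1 of each sign), -0.20 for the 3 Kcnn genes and -0.39 for the 2 Kcnt genes, none of which turned under any scaling, and *kcnu1* had 0.81.

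The Kcnq genes encode the current that muscarinic and other receptors close to make neurons more excitable. *kcnq3* had reads of 280, 406, 530, 461 and 414 in RC NoDS, of 542, 591, 521, 505 and 472 in HFD → RC and of 468, 408, 540, 379 and 383 in HFD NoDS, and from 419 to 659 with a median of 543 in the 6 libraries of RC → HFD. RC NoDS and HFD NoDS held the low values of *kcnq3*, and all groups overlapped. In the interaction *kcnq3* had -0.70 ± 0.21 (adjusted p = 0.254, 0.117 to 0.506 over the alternatives, with log2 values from -0.80 to -0.58). It was called by DESeq2 and with the trend on length and GC content removed, in fits that called 116 and 275 of all genes tested. From RC NoDS to RC → HFD *kcnq3* had 0.42 ± 0.15 (adjusted p = 0.673, 0.372 to 1.00 over the alternatives, with log2 values from 0.30 to 0.52). The median interaction of the 4 was -0.24, with 3 negative and no turn under any scaling.

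Silent and modifier subunits form no channel alone and tune those they join. *kcnf1*, which joins Kcnb channels, had the most reads, with 1737 ± 178 reads in RC NoDS, 1594 ± 162 in RC → HFD, 1549 ± 173 in HFD → RC and 1692 ± 199 in HFD NoDS. *kcne1l* had reads of 357, 323, 401, 312 and 345 in RC NoDS, of 359, 447, 426, 335 and 481 in HFD → RC and of 417, 364, 373, 385 and 349 in HFD NoDS, and from 296 to 346 with a median of 320 in the 6 libraries of RC → HFD. RC → HFD was the low group of *kcne1l*, a single-pass accessory subunit, with every library under every HFD NoDS library. From RC → HFD to HFD → RC its log2 difference was 0.35 ± 0.12 (adjusted p = 0.823, 0.277 to 1.00 over the alternatives, with log2 values from 0.28 to 0.41), and for the earlier diet 0.24 ± 0.084 (adjusted p = 0.577, 0.248 to 1.00 over the alternatives, with log2 values from 0.20 to 0.27). The median interaction of the 7 was -0.041, with 4 negative and the same sign under every scaling.

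**Figure D4:**
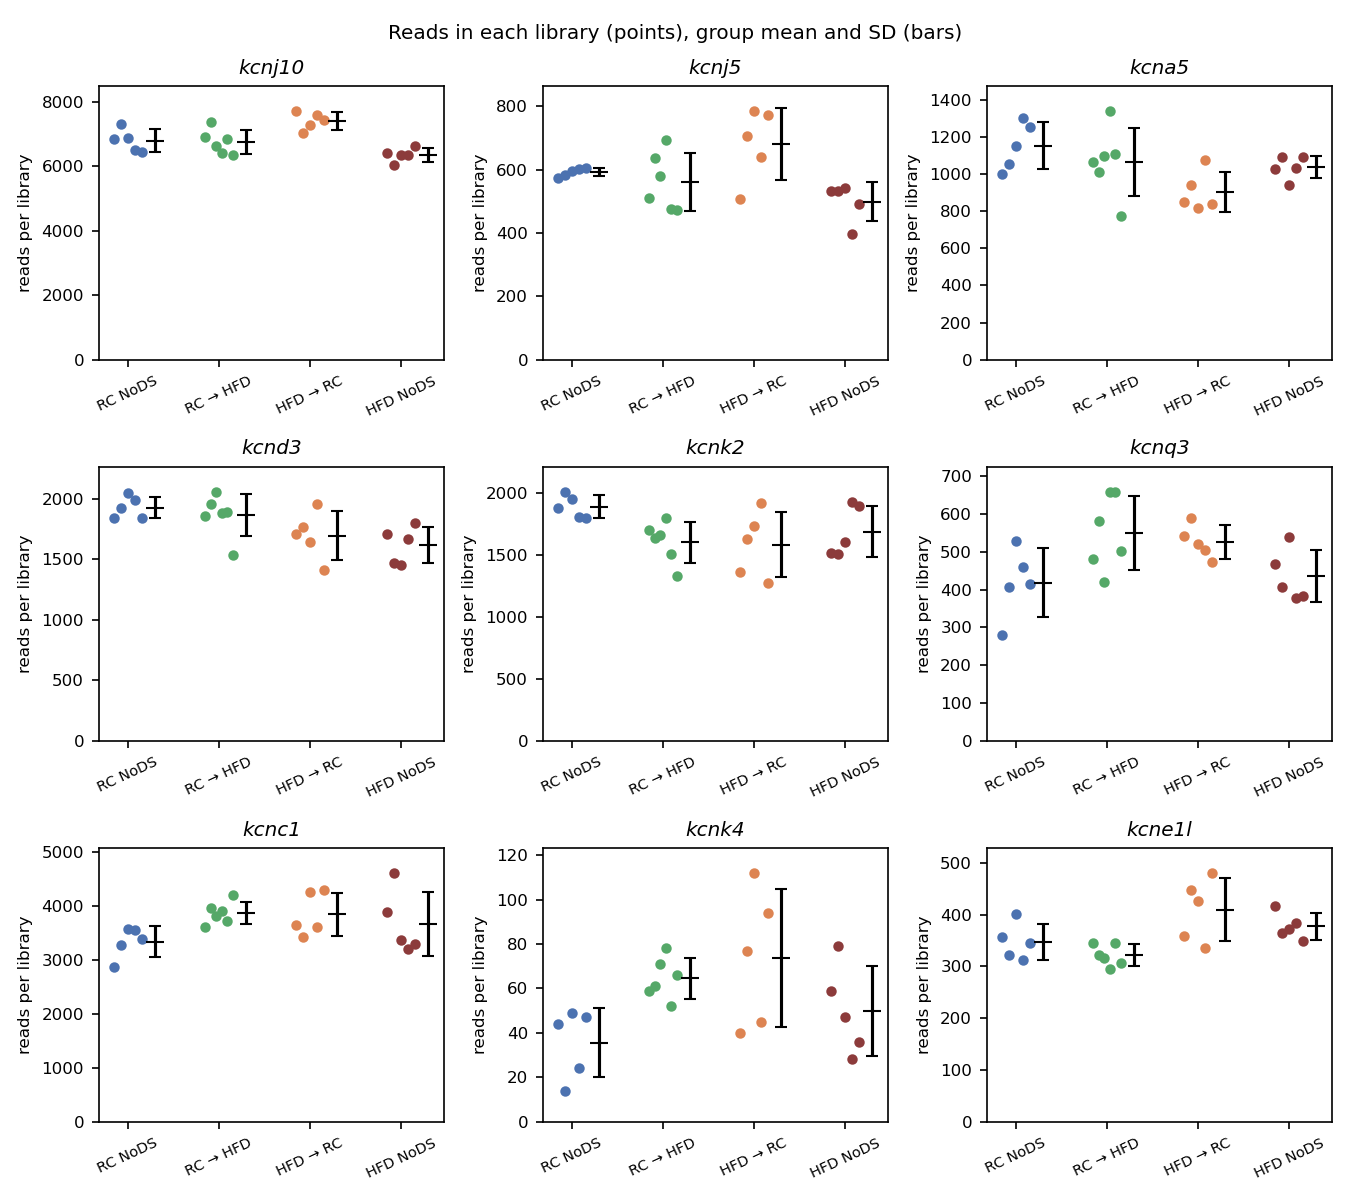
Reads in each library (points) with the group mean and SD (bars) for *kcnj10*, *kcnj5*, *kcna5*, *kcnd3*, *kcnk2*, *kcnq3*, *kcnc1*, *kcnk4* and *kcne1l*, by diet group, each axis starting at 0. For *kcnj10* all HFD → RC points, from 7017 reads, lie above all HFD NoDS points, up to 6639 reads.

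Proteins that work with these channels were counted in the same way, over the same 10 comparisons. For each list the tests at an unadjusted p under 0.05 are counted over its genes and all 10 comparisons. Of all genes tested, between 5.22% and 8.84% were under that limit in a comparison. Of the 2 sulfonylurea receptors that complete the ATP-closed channel, edgeR called 0, DESeq2 0 and limma-voom 0 in any comparison, with 0, 1 and 0 tests under 0.05 of 20. The more abundant, *abcc8*, had a mean of 340 reads. Of the 6 accessory proteins of Kcnd and Kcna channels, edgeR called 0, DESeq2 0 and limma-voom 0 in any comparison, with 2, 2 and 2 tests under 0.05 of 60. Of the 5 tested partners of Kcnb and large-conductance channels, edgeR called 0, DESeq2 0 and limma-voom 0 in any comparison, with 0, 0 and 0 tests under 0.05 of 50. Of the 6 tested relatives that bind cyclic nucleotides, edgeR called 0, DESeq2 0 and limma-voom 0 in any comparison, with 15, 16 and 15 tests under 0.05 of 60. Of the 8 calcium channels, edgeR called 0, DESeq2 0 and limma-voom 0 in any comparison, with 8, 8 and 8 tests under 0.05 of 80. Of the 10 tested entries of voltage-gated sodium channels, edgeR called 0, DESeq2 1 (*scn2b*) and limma-voom 0 in any comparison, with 18, 19 and 19 tests under 0.05 of 100. Of 20 receptors and G protein parts that act on G protein-gated rectifiers, edgeR called 1 up and 0 down, the adenosine receptor *adora1*, with 0.44 ± 0.10 from RC NoDS to HFD → RC (adjusted p = 0.115) and 0.35 ± 0.068 for the earlier diet (adjusted p = 0.0628). It was also called in the test of all 4 groups. Of these 20, DESeq2 called 2 (*adora1* and *gabbr2*) and limma-voom 1 (*adora1*), with 22, 26 and 27 tests under 0.05 of 200 by the 3 tools. Of 10 pumps and cotransporters that move potassium, edgeR called 1 up and 0 down, the potassium and chloride cotransporter *slc12a7*, with 0.63 ± 0.14 from HFD → RC to HFD NoDS (adjusted p = 0.132) and 0.95 ± 0.19 in the interaction (adjusted p = 0.145). Of these 10, DESeq2 called 2 (among them *slc12a7*) and limma-voom 1 (*slc12a7*), with 15, 14 and 17 tests under 0.05 of 100 by the 3 tools.

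The members also differed in how steady they were among libraries of a group. The biological coefficient of variation estimated by edgeR had a median of 17.1% over the members and 14.8% over all genes tested. It was 6.66% for *kcnj10*, which has many reads, and 50.5% for the second identifier of *kcnb2*, whose reads are few. In the interaction the median SE of a member was 0.22 on the log2 scale, beside 0.19 over all genes tested, and the median absolute interaction of a member was 0.25 beside 0.15.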

How the data were processed

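The deposited values are counts, whole reads per gene. According to the submitters' processing notes, sequencing runs were merged with Picard 2.7.1, aligned with STAR 2.5.1b to mm9, and drawn at random by PORT to a common number of gene reads, and the counts were not scaled after that. Genes averaging at least 50 reads were fitted with edgeR 4.0.16 (TMM, quasi-likelihood, 1 mean per group), and p values were adjusted by Benjamini-Hochberg over all 12768 genes, with a call at an adjusted p under 0.15. DESeq2 1.42.0 and limma-voom (limma 3.58.1) were run on the same genes. Other alternatives were a lower filter or none, library size without TMM, only the libraries compared, robust dispersion, reads summed by symbol, a covariate for missed weak genes, removal of each library's trend on length and GC content, and each library left out. Named genes are those called, the most abundant of each family, the 6 members with the smallest p in the overall test and in the tests of unswitched and of switched groups, and the 3 with the smallest p in each other test. Some genes and sequences that these rules select are not reported here. Others named were chosen after their values were seen. Exon lengths, coordinates and coding sequences come from GENCODE vM1 (NCBIM37). Members and lists were chosen with earlier results of these data known.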

Additional observations from a re-analysis of the deposited data

Results flagged for a closer look

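Of 108 groups of libraries looked at, 2 held a library far from the others of its group, where chance flags about 1 in 20 groups. *kcnc4* had 1516 reads in RC → HFD replicate 12, and the next highest had 1323. *kcnh4* had 223 reads in HFD NoDS replicate 20, and the next highest had 169.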

How the results depend on the processing

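Of 31 alternatives, 21 leave out 1 library. The count of members called stayed at 0 in every alternative for the unswitched groups against each other, for the switched groups against each other, for RC → HFD v HFD NoDS and for both diet averages. DESeq2 called 1 (*kcnj10*) in the test of all 4 groups, 2 (among them *kcnc1*) in RC NoDS v RC → HFD, 2 (*kcnj10* and *kcnj5*) in HFD → RC v HFD NoDS and 2 (*kcnj10* and *kcnq3*) in the interaction. With the trend on length and GC content removed edgeR called 1 (*kcnj10*) in the test of all 4 groups, 1 (*kcnj10*) in RC NoDS v HFD → RC, 1 (*kcnj10*) in HFD → RC v HFD NoDS and 3 (*kcnj10*, *kcnk4* and *kcnq3*) in the interaction. Over all genes tested that fit called 174 in RC NoDS v HFD → RC, 8 in HFD → RC v HFD NoDS and 275 in the interaction. The main fit called 36, 9 and 4 there. For the test of all 4 groups, the count over all genes with that trend removed is not given. The call of *kcnj10* in that test therefore cannot be weighed against it. limma-voom called 1 (*kcnj10*) in HFD → RC v HFD NoDS. With missed weak genes as a covariate edgeR called 1 (*kcnj10*) in HFD → RC v HFD NoDS, beside 15 of all genes tested. Leaving out each library in turn, the count ran from 0 to 1 in RC NoDS v HFD → RC (*kcna5*), HFD → RC v HFD NoDS (*kcnj10*) and the interaction (*kcnc1*). Over all genes tested, the fit that called *kcna5* called 205 and the one that called *kcnc1* called 124. Those that called *kcnj10* called 12 without RC NoDS replicate 2 and 13 without RC → HFD replicate 8. Among log2 values of named members, none of them called, 9 took the other sign in places. With the length and GC trend removed *kcnc1* had 0.00092 in RC → HFD v HFD → RC, *kcnh2* had -0.034 in RC NoDS v HFD NoDS and *kcnt1* had -0.030 in RC NoDS v HFD NoDS. With the covariate *kcnh2* had -0.031 in RC NoDS v HFD NoDS, *kcnk2* had 0.026 in RC → HFD v HFD → RC and *kcnf1* had 0.022 in RC NoDS v HFD NoDS. Leaving out a library gave *kcna6* from -0.066 to 0.041 in RC → HFD v HFD → RC, *kcnc1* from -0.056 to 0.027 in RC → HFD v HFD → RC, *kcnk2* from -0.094 to 0.053 in RC → HFD v HFD → RC, *kcnma1* from -0.035 to 0.13 in RC NoDS v HFD NoDS, *kcnt1* from -0.061 to 0.044 in RC → HFD v HFD → RC, *kcnf1* from -0.065 to 0.044 in RC NoDS v HFD NoDS and *kcnf1* from -0.10 to 0.013 in RC → HFD v HFD → RC. The cause was not tested. No paired analysis was possible because the groups share no replicate numbers. At 5 or 6 pools a group, small differences in weakly expressed members may have been missed, which was not tested. A call missed by edgeR does not show that a gene was equal between groups. Counting by strand is not stated, which limits the values of the 9 members whose exons overlap another gene.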
